A study of Mus musculus with 16 samples.

Results

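The dystrophin glycoprotein complex genes were followed in gastrocnemius, the large muscle of the calf, of normal mice and of mice with cancer cachexia. The members were taken by gene symbol and were Dmd, Utrn, Dag1, Sgca, Sgcb, Sgcd, Sntb1, and Sspn, which are 8 of the 21923 genes in the deposited table. All 8 were found, and all 8 passed the filter on low counts in each comparison.

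Poly(A) RNA of 16 mice was sequenced, 1 library per mouse and 4 mice per group. The mice were bought at an age of 6 to 8 weeks, and no gene of the host was changed by design. NOR mice were normal controls injected with PBS and no tumor cells. In CAC mice tumors grew under the skin of the right flank, and PBS was given each day from day 9. AM mice carried the same tumors and received amiloride, a potassium-sparing diuretic used in the study to block exosome release, at 2 mg/kg each day from day 9. KD mice received PBS and carried tumors grown from cells in which Rab27a and Rab27b, genes needed for exosome release, had been knocked down by shRNA, so the knock-down was in the tumor and not in the muscle. Tissue was collected on day 30 from every group. Replicates 1 and 2 of a group carry the label C57BL/6, the host of LLC lung carcinoma cells, and replicates 3 and 4 the label BABL/c, written BALB/c in the protocol, the host of CT26 colon carcinoma cells. Strain and tumor line changed together and cannot be told apart. The same CAC mice serve in the comparisons with NOR, AM, and KD.

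The dystrophin glycoprotein complex joins the actin cytoskeleton of a muscle fiber to laminin outside it and protects the membrane during contraction. Dystrophin (Dmd) binds actin at its start and the membrane protein beta-dystroglycan near its end, and utrophin (Utrn), its paralog, can hold the same place and is found in adult muscle mainly at the nerve and tendon junctions. Dystroglycan (Dag1) is cut into an outer part that binds laminin through its sugar chains and an inner part that crosses the membrane. The sarcoglycans (Sgca, Sgcb, and Sgcd among them) form a membrane subcomplex with sarcospan (Sspn), and syntrophins such as beta-1-syntrophin (Sntb1) sit inside the fiber as adaptors. Loss of dystrophin causes Duchenne muscular dystrophy, and loss of a sarcoglycan a limb-girdle dystrophy.

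The genes lie on 7 chromosomes of the GRCm38 build, by the GENCODE M21 annotation. Dmd (ENSMUSG00000045103) runs from 82948870 to 85206141 on the plus strand of chromosome X and spans 2257.3 kb, and Utrn (ENSMUSG00000019820) from 12382188 to 12869365 on the minus strand of chromosome 10. Dag1 (ENSMUSG00000039952) lies on chromosome 9 from 108204634 to 108263958, minus strand. Sgca (ENSMUSG00000001508) and Sgcd (ENSMUSG00000020354) share chromosome 11, from 94962791 to 94976327 and from 46896253 to 47988969, both on the minus strand. Sgcb (ENSMUSG00000029156) lies on chromosome 5 from 73632749 to 73647790 and Sntb1 (ENSMUSG00000060429) on chromosome 15 from 55636388 to 55906949, both on the minus strand. Sspn (ENSMUSG00000030255) lies on chromosome 6 from 145931641 to 145965223, plus strand. Reads were counted over whole genes, so exons and isoforms are not separated. Exons of another annotated gene overlapped only those of Sspn, over 69 bases, or 1.38% of its exonic bases, on the other strand.

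Upstream sequences of 3 genes are printed because their genes carried the 2 main patterns below, the higher Dmd level of CAC mice, which missed the limits, and the shared levels of Dag1 and Sgca. Each is the 250 bases before a RefSeq transcription start (GRCm38.p6), written 5′ to 3′ on the strand of the gene. Capitals mark letters that match an E-box (CANNTG, the core bound by myogenic factors such as MyoD), the M-CAT motif (GGAATG or its complement CATTCC), or the CArG box bound by serum response factor, searched on both strands. The Dmd window is chrX:82948620-82948869 on the plus strand, before the start at the gene's first base. The Dag1 window is chr9:108263959-108264208 and the Sgca window chr11:94976328-94976577, both on the minus strand.
Dmd: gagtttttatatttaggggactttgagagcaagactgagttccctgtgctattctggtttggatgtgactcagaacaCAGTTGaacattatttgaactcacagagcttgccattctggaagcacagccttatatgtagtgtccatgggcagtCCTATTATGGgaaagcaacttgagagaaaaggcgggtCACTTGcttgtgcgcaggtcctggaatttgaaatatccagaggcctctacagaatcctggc
Dag1: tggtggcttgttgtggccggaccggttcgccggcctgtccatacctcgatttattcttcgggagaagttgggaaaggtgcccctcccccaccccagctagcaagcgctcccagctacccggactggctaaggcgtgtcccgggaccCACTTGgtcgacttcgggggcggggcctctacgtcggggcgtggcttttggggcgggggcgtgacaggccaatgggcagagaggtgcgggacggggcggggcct
Sgca: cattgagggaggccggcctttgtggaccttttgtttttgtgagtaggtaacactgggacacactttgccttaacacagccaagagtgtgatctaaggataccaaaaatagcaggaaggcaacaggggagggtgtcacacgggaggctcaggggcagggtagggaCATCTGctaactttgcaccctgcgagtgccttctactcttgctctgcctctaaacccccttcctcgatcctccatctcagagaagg
RefSeq lists another start for Dmd, whose window (chrX:85048045-85048294) held 0 of the 3 motifs. It lists another for Dag1 (chr9:108263816-108264065), whose window overlaps the printed one and holds the same single E-box. Counts over whole genes do not separate the starts. The Dmd window printed above held 2 E-boxes and 1 CArG box, and the Dag1 and Sgca windows 1 E-box each. Of 32851 RefSeq promoters of the same length, 66.2% held an E-box, 12.6% an M-CAT motif, and 1.47% a CArG box, so an E-box alone is common. The base composition differed, with 45.2% G and C in the Dmd window, 67.6% in that of Dag1, and 52.8% in that of Sgca, against a median of 52.4% over all promoters. RefSeq starts were matched for 7 of the 8 members, and Sntb1 had none in the table.

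The total count of a library ran from 35913190 to 61032708, and the members took 300 to 20632 reads each in a library, so that counting error was small. The 6 fast fiber markers fixed for the muscle (Acta1, Ckm, Mylpf, Tnnt3, Tnni2, and Myh4) were high in every library, with a summed level of 119100 to 169780 CPM in NOR and 53321 to 123670 CPM in CAC. In bulk muscle, fewer cells of a type and less RNA per cell cannot be told apart. RNA of B and T lymphocytes stood unevenly over the libraries. The sum of Cd79a, Cd79b, Ms4a1, Cd3e, and Cd3d was 268.9 CPM in AM replicate 1, 208.1 in CAC replicate 3, and 172.4 in KD replicate 1, and only 0.24 to 2.07 CPM in NOR replicate 1, CAC replicates 1 and 4, and KD replicates 2 and 3. The methods name male mice, and the growth protocol of the sample labels names BALB/c mice of both sexes. Ddx3y, Eif2s3y, Kdm5d, and Uty, the 4 Y-linked genes measured, were at 0 counts in KD replicate 3 and present in the other 15 libraries.

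CPM below is the count of a gene divided by the TMM-scaled total of its library, which compares a gene between libraries. FPKM, the deposited unit, divides also by gene length and serves to compare genes. The labels call the 4 samples of a group replicates, so p-values measure the spread between these samples. That spread includes any difference between strain labels and tumor lines, since the main fit had no term for them. With edgeR's quasi-likelihood test, 0 of 8 members passed both limits (a Benjamini-Hochberg FDR up to 0.05 over all genes tested, with a ratio of group levels not under 1.5 or not over 0.667) in any of 5 comparisons. Of all genes tested, 9.45% did so for CAC against NOR, 3.66% for AM against CAC, 0.00685% for KD against CAC, 0% for AM against NOR, and 0% for KD against NOR. At an unadjusted p under 0.05 stood 3 members in CAC vs. NOR (Dmd, Sgcd, and Sspn) and 2 in AM vs. CAC (Dmd and Sntb1), against 29.1% and 21.7% of all genes. In KD vs. CAC, AM vs. NOR, and KD vs. NOR 0 members did, against 11.1%, 9.19%, and 3.54% of all genes. The members' shares in these comparisons lay close to the background or under it. DESeq2 called 1 member in CAC vs. NOR (Sspn) and 1 in AM vs. CAC (Sntb1) and 0 in the other comparisons, and limma-voom called 0 in all 5. DESeq2 called 13.1%, 7.63%, 2.33%, 0.475%, and 0.21% of all genes in the same order, and limma-voom 9.91%, 3.77%, 0%, 0%, and 0%.

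**Figure D1:**
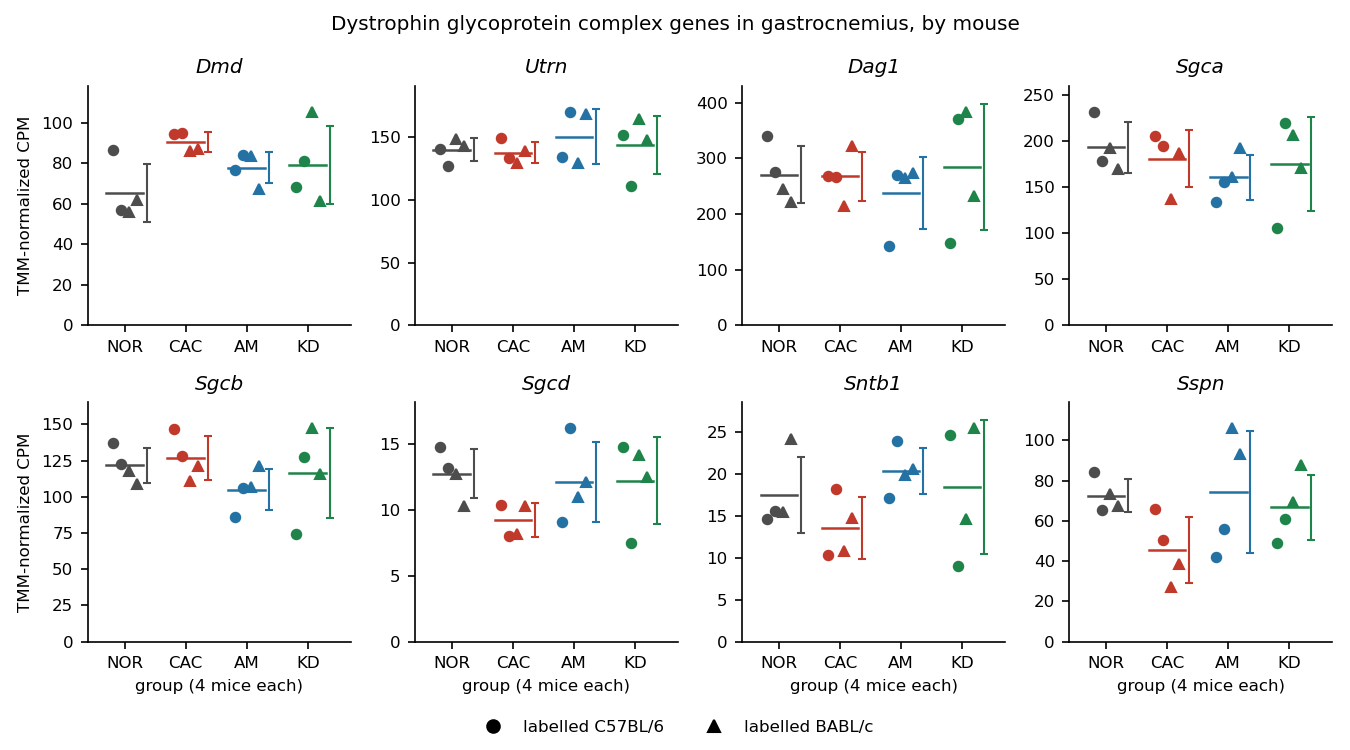
TMM-normalized CPM (y axis, from 0) of the 8 genes in each mouse of the 4 groups (x axis), with circles for mice labelled C57BL/6, triangles for mice labelled BABL/c, a line for the mean, and a bar for 1 SD. The 4 groups overlap for every gene except Dmd, whose AM mice (67.4 to 84.0 CPM) lie under all CAC mice (85.9 to 94.9 CPM), and in CAC the lowest Sspn values are those of the BABL/c mice.

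Sgca had the highest level per length in every group, and Sgcd and Sntb1 the lowest. In NOR mice Sgca had 166.7 ± 12.9 FPKM (SD, n = 4) and Dag1 79.6 ± 10.7. Sgcb followed with 31.1 ± 1.74 FPKM, Utrn with 26.5 ± 2.16, Sspn with 15.7 ± 0.817, and Dmd with 8.89 ± 1.33. Sgcd (6.04 ± 0.663 FPKM) and Sntb1 (5.54 ± 1.63) came last and overlapped, whereas each of the 6 higher neighbors in this order stood clear of the next. The order changed at 3 places. In CAC mice Dmd (13.5 ± 1.06 FPKM) stood above Sspn (10.5 ± 2.79), with overlapping mice. In AM mice Utrn (29.7 ± 3.37 FPKM) and Sgcb (27.98 ± 2.27) changed places, again with overlap. In AM and KD mice Sntb1 and Sgcd changed places and also overlapped. Over the 4 groups, 17 of 28 pairs of neighbors did not overlap.

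**Figure D2:**
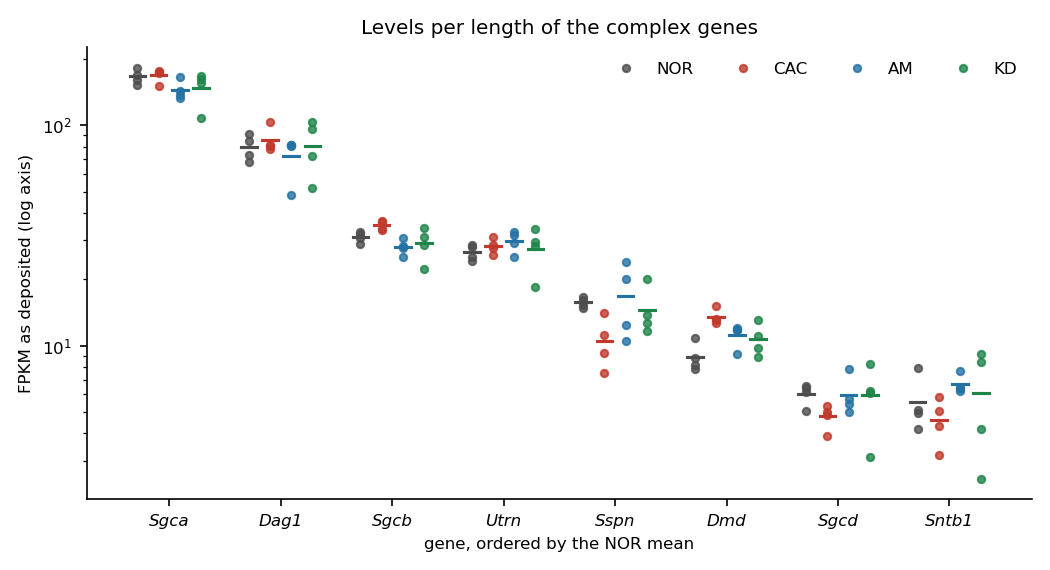
Deposited FPKM (y axis, log scale) of the 8 genes, ordered by their NOR mean (x axis), with 1 point per mouse and a bar for the mean of each group. Sgca lies between 108.2 and 183.0 FPKM in all 16 mice, and Sgcd and Sntb1 between 2.49 and 9.13 FPKM.

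The length behind the FPKM matters for the long genes. The length that counts and FPKM imply was 7.07 kb for Dmd and 5.10 kb for Utrn, whereas the longest annotated transcripts have 14.9 and 12.4 kb. With CPM per kb of the longest transcript, Utrn in NOR mice fell behind Sspn (11.3 ± 0.742 against 16.1 ± 1.85), and Sgca (111.8 ± 15.9), Dag1 (47.8 ± 9.12), and Sgcb (32.2 ± 3.18) kept the first 3 places.

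Dmd was higher in CAC than in NOR mice by a fold change that missed the limits. Its level was 86.4, 57.1, 56.0, and 62.0 CPM in the 4 NOR mice and 94.2, 94.9, 85.9, and 86.9 CPM in the 4 CAC mice. The CAC mice lay close together, and all NOR mice were lower except NOR replicate 1, which reached just into the CAC range. The log2 fold change was 0.46 (SE 0.158, 95% interval 0.10 to 0.82), or 1.38-fold, with an edgeR FDR of 0.0911. An exact two-sided permutation test on CPM gave p = 0.0571, the second smallest value that 4 against 4 mice allow. Without NOR replicate 1 the log2 fold change was 0.65 and the edgeR FDR 0.00906, past both limits. Since this library was the highest of its group, leaving it out had to raise the fold change. That library also had almost no lymphocyte RNA (2.07 CPM, against 140.8 to 156.0 CPM in the other NOR mice) and the most fast fiber RNA of all 16 (169780 CPM). With the lymphocyte markers as a term in the fit, Dmd was 0.40 higher on the log2 scale (edgeR FDR 0.0860), and the part of the fiber content was not tested.

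The scaling also bore on Dmd. FPKM, which follow total counts, were 7.79 to 10.8 in NOR and 12.7 to 15.1 in CAC mice and did not overlap, and with total-count scaling edgeR gave a log2 fold change of 0.60 and an FDR of 0.0139. That scaling moved the median of all genes from 0.01 to 0.14 on the log2 scale, so Dmd lay 0.45 above the median with TMM and 0.46 with total counts. DESeq2 gave 0.46 with an FDR of 0.0381 and a ratio under 1.5. The direction was the same in mice labelled C57BL/6 alone (0.40, FDR 0.372) and BABL/c alone (0.58, FDR 0.165), and over 21 alternatives the log2 fold change stayed between 0.39 and 0.65.

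In AM mice Dmd was 76.7, 84.0, 83.4, and 67.4 CPM, and every AM mouse lay under every CAC mouse. The log2 fold change in AM vs. CAC was -0.22 (SE 0.0908, 95% interval -0.42 to -0.01), a decrease of 13.9%, with an edgeR FDR of 0.212. This was the only one of 40 comparisons of a member between groups without overlap (exact permutation p = 0.0286, the smallest possible, and 0.381 after adjustment over the 40). Of all genes tested in AM vs. CAC, 15.3% did not overlap, and the shares in CAC vs. NOR, KD vs. CAC, AM vs. NOR, and KD vs. NOR were 23.3%, 7.29%, 5.11%, and 2.26%. In KD mice Dmd was 68.4, 80.9, 105.4, and 61.4 CPM, overlapped both NOR and CAC, and had a log2 fold change of -0.20 vs. CAC (SE 0.168, edgeR FDR 0.727). The highest Dmd value of all mice was that of KD replicate 3, the library without Y-linked RNA, and leaving it out gave -0.36 in KD vs. CAC (edgeR FDR 0.501), while leaving out KD replicate 4, the lowest KD mouse, gave -0.08 (edgeR FDR 0.974). Against NOR, Dmd differed by 0.26 in AM (SE 0.160) and by 0.27 in KD mice (SE 0.205), with edgeR FDRs of 0.618 and 0.999. Without NOR replicate 1 these log2 differences were 0.43 and 0.44, and without KD replicate 3 the latter was 0.11.

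With CPM scaled by total counts alone, 6 of the 40 comparisons did not overlap, namely Dmd, Sgcb, and Sspn in CAC vs. NOR and Dmd, Sgcb, and Sntb1 in AM vs. CAC. By that scaling 24.8% and 15.4% of all genes did not overlap in these comparisons, and 10.2%, 5.01%, and 2.3% in KD vs. CAC, AM vs. NOR, and KD vs. NOR. The adjusted exact permutation p of all 6 was 0.190.

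**Figure D3:**
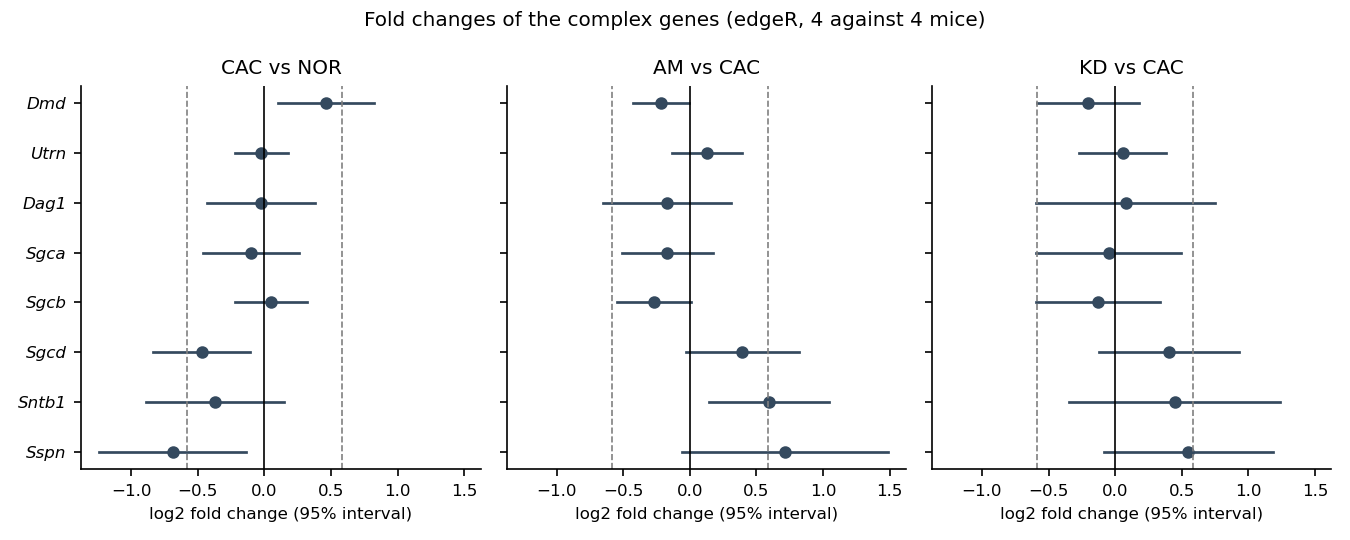
Log2 fold change (x axis) with its 95% interval for each gene (y axis), with CAC set against NOR and AM and KD each set against CAC, by edgeR with 4 against 4 mice; dashed lines mark 1.5-fold. The interval excludes 0 for Dmd, Sgcd, and Sspn in CAC vs. NOR and for Dmd and Sntb1 in AM vs. CAC, and every FDR was above 0.05.

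Utrn, the paralog of dystrophin, stayed at like levels in the 4 groups. It was 126.7 to 148.4 CPM in NOR, 128.9 to 149.2 in CAC, 128.8 to 169.9 in AM, and 110.6 to 163.9 in KD mice, and all groups overlapped. It differed on the log2 scale by -0.03 in CAC vs. NOR (95% interval -0.22 to 0.17), 0.13 for AM against CAC (-0.14 to 0.39), and 0.06 for KD against CAC (-0.27 to 0.38). The intervals exclude a change of 1.5-fold in either direction in these 3 comparisons. The log2 ratio of Dmd to Utrn within a library, on FPKM, was -1.17, -1.62, -1.88, and -1.67 in NOR mice and -1.13, -0.96, -1.06, and -1.14 in CAC mice. All CAC ratios lay above the NOR ratios, but NOR replicate 1 (-1.17) came close to CAC replicate 4 (-1.14). The FPKM of Dmd alone did not overlap between these groups either. Of single genes, 23.3% did not overlap in CPM in CAC vs. NOR, and the share among ratios was not computed. In AM mice the ratio spread from -1.79 to -1.10 and in KD mice from -1.73 to -0.92, and both overlapped NOR and CAC.

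Dag1, the dystroglycan precursor, showed no change past the spread between mice. It was 341.0, 274.7, 245.6, and 221.7 CPM in NOR, 268.4, 266.5, 215.1, and 321.9 CPM in CAC, 141.9, 270.9, 265.6, and 273.0 CPM in AM, and 148.8, 370.7, 383.9, and 233.3 CPM in KD mice. AM replicate 1 and KD replicate 1 were far under all other libraries. Its log2 differences were -0.03 for CAC against NOR (95% interval -0.43 to 0.38), -0.17 for AM against CAC (-0.65 to 0.31), and 0.08 for KD against CAC (-0.60 to 0.75), with edgeR FDRs of 0.948, 0.700, and 0.967.

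None of the 3 sarcoglycans passed the limits. Sgca, the alpha-sarcoglycan, was 169.6 to 231.5 CPM in NOR, 136.4 to 205.3 in CAC, 133.6 to 192.3 in AM, and 105.7 to 219.2 in KD mice. Sgcb, the beta-sarcoglycan, was 108.6 to 137.5 CPM in NOR, 111.1 to 146.6 in CAC, 86.1 to 121.0 in AM, and 74.2 to 147.7 in KD mice. The groups overlapped for both genes. In CAC vs. NOR their log2 fold changes were -0.10 (SE 0.158) and 0.05 (SE 0.118), and in AM vs. CAC -0.17 (SE 0.149) and -0.27 (SE 0.122), with edgeR FDRs from 0.244 to 0.832.

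Sgcd, a sarcoglycan that is also found in smooth muscle, was lower in CAC mice without passing the limits. Its level was 14.7, 13.1, 12.7, and 10.3 CPM in NOR and 10.4, 8.0, 8.2, and 10.3 CPM in CAC mice. Only NOR replicate 4 fell into the CAC range. The log2 fold change was -0.47 (SE 0.160, 95% interval -0.84 to -0.11), a decrease of 27.9%, with an edgeR FDR of 0.0857 (0.0359 by DESeq2, and 0.0209 at -0.58 with the lymphocyte markers as a term, both short of the fold limit) and an exact permutation p of 0.0571. It was -0.60 in mice labelled C57BL/6 and -0.29 in mice labelled BABL/c. In AM mice it was 9.1, 16.2, 11.0, and 12.1 CPM and in KD mice 14.8, 7.4, 14.1, and 12.5 CPM, with KD replicate 2 under every CAC mouse. The log2 fold change vs. CAC was 0.39 in AM (SE 0.186, edgeR FDR 0.269) and 0.40 in KD mice (SE 0.230, edgeR FDR 0.561). Without KD replicate 2 the latter was 0.57 (edgeR FDR 0.156), and without AM replicate 2, the highest AM mouse, the former was 0.23 (edgeR FDR 0.510).

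Sspn, sarcospan, had the lowest log2 fold change of the 8 genes in CAC vs. NOR and missed the limits. It was 84.1, 65.5, 73.2, and 67.6 CPM in NOR and 65.7, 50.3, 27.1, and 38.8 CPM in CAC mice. All CAC mice lay under the NOR mice except CAC replicate 1, which stood level with the lowest NOR mouse. The log2 fold change was -0.69 (SE 0.241, 95% interval -1.24 to -0.14), a decrease of 37.9%, with an edgeR FDR of 0.0957 and an exact permutation p of 0.0571. Sspn passed both limits in 4 of 21 alternatives, namely DESeq2 (FDR 0.0362), edgeR with the strain label as a term (-0.74, FDR 0.0428), edgeR with the lymphocyte markers as a term (-0.85, FDR 0.0299), and edgeR without CAC replicate 1 (-0.91, FDR 0.0430). Its direction was the same in all 21. CAC replicate 3, the lowest, was the library with the least fast fiber RNA of all 16 (53321 CPM) and with 208.1 CPM of lymphocyte RNA, and leaving it out gave -0.49 (FDR 0.126). The part of the fiber content in the Sspn level was not tested.

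The values of Sspn in AM mice fell apart by strain label, with 42.0 and 56.1 CPM in mice labelled C57BL/6 and 106.3 and 93.0 CPM in mice labelled BABL/c. The first pair lay within the CAC range and the second above all NOR mice. The log2 fold change in AM vs. CAC was 0.71 (SE 0.338, 95% interval -0.06 to 1.49, edgeR FDR 0.270) over all mice, -0.23 (FDR 0.565) in mice labelled C57BL/6, and 1.58 (FDR 0.179) in mice labelled BABL/c. In KD vs. CAC it was 0.55 (SE 0.278, FDR 0.511) over all mice, -0.05 (FDR 0.996) in mice labelled C57BL/6, and 1.23 (FDR 0.343) in mice labelled BABL/c, from KD levels of 49.1, 60.8, 69.3, and 87.8 CPM. The interaction of strain label and condition was 1.81 on the log2 scale in AM vs. CAC (SE 0.306, unadjusted p = 0.000836 and FDR 0.263 by edgeR) and 1.29 in KD vs. CAC (SE 0.368, edgeR FDR 0.854), so a difference between the labels was not shown across all genes. In CAC vs. NOR it was -0.65 (SE 0.325, edgeR FDR 0.999). For the other 7 members the interaction had FDRs of 0.421 to 1.0 by edgeR in these 3 comparisons, and 0 genes of the whole table passed in any of them.

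Sntb1, a syntrophin that anchors signaling proteins to dystrophin and its paralogs, was among the low members. It was 14.6, 15.5, 15.4, and 24.2 CPM in NOR, 10.3, 18.2, 10.7, and 14.7 CPM in CAC, and 17.1, 23.9, 19.8, and 20.6 CPM in AM mice. All AM mice lay above the CAC mice except that CAC replicate 2 exceeded AM replicate 1. In AM vs. CAC the log2 fold change was 0.59 (SE 0.199, 95% interval 0.14 to 1.05), or 1.51-fold, with an edgeR FDR of 0.126 and a DESeq2 FDR of 0.0449 at 0.61, the only alternative of 21 that called it. Leaving out CAC replicate 2 gave 0.77 (edgeR FDR 0.0693), and leaving out AM replicate 1 gave 0.66 (edgeR FDR 0.143). In CAC vs. NOR it was -0.37 (SE 0.226, edgeR FDR 0.321), and -0.19 (edgeR FDR 0.629) without NOR replicate 4, the highest NOR mouse. The KD mice, with 24.6, 9.0, 14.6, and 25.5 CPM, covered the whole range of the other groups.

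Dag1, Sgca, and Sgcb followed each other from library to library. Pearson's r of log2 CPM over the 16 libraries was 0.92 between Sgca and Sgcb, 0.86 between Dag1 and Sgca, and 0.86 between Dag1 and Sgcb. Utrn and Sgcd had r = 0.71, Dmd and Utrn only 0.01, and Sntb1 and Sgcb -0.53. These are descriptions over libraries that share 4 conditions and a common scaling. AM replicate 1 and KD replicate 1 were the lowest libraries for Dag1, Sgca, and Sgcb, and these libraries had 268.9 and 172.4 CPM of lymphocyte markers and 106300 and 94859 CPM of fast fiber markers. In CAC replicate 3, where lymphocyte markers were also high and fast fiber markers lowest, Dag1, Sgca, and Sgcb were the lowest of their group in CPM as well, whereas in FPKM only Sgca was, and Dag1 (81.2) and Sgcb (36.3) were the second highest. NOR replicate 1 and KD replicates 2 and 3 had the most fast fiber markers of all libraries (169780, 157070, and 147660 CPM). They also had the highest Dag1 (341.0, 370.7, and 383.9 CPM). Other libraries went otherwise. CAC replicate 4 had 78243 CPM of fast fiber markers and the highest Dag1 of its group (321.9 CPM), and NOR replicates 2 to 4 and AM replicate 4 had 140.8 to 156.0 CPM of lymphocyte markers with at least 221.7 CPM of Dag1. Without AM replicate 1 the log2 fold changes of Dag1, Sgca, and Sgcb in AM vs. CAC were 0.01, -0.10, and -0.19, and without KD replicate 1 those in KD vs. CAC were 0.29, 0.13, and 0.03, with edgeR FDRs of 0.424 to 0.987. With the lymphocyte markers as a term, those of Dag1, Sgca, and Sgcb were -0.02, -0.07, and -0.21 in AM vs. CAC and -0.05, -0.11, and -0.18 in KD vs. CAC, with edgeR FDRs of 0.442 to 0.964. The part of the fiber content in these levels was not tested. Sspn was also lowest of its group in these 3 libraries, and over all 16 it had r = 0.45 with Sgca and 0.34 with Dag1.

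**Figure D4:**
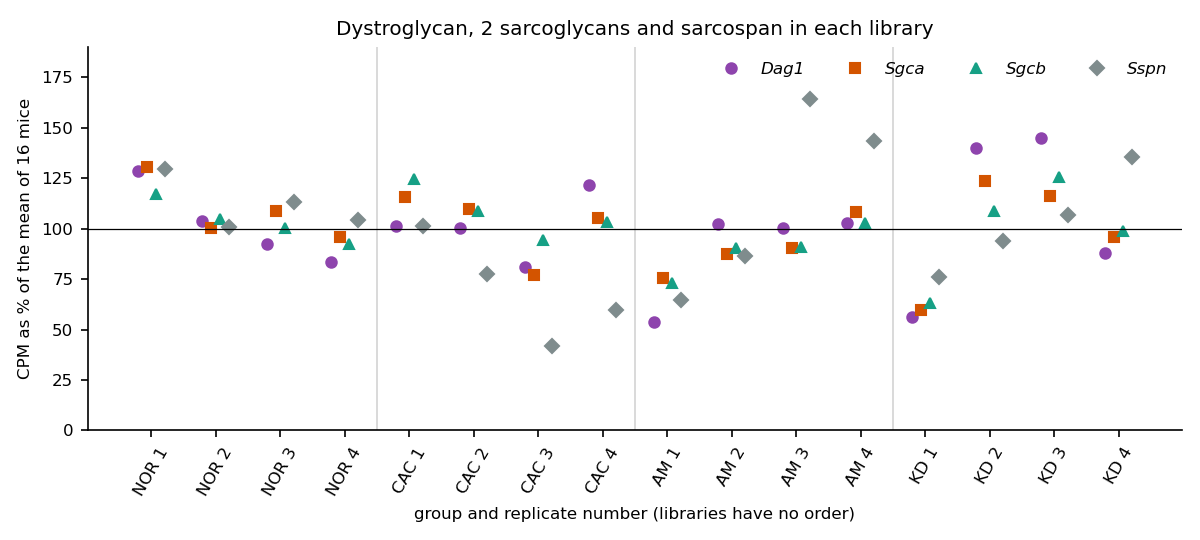
CPM of Dag1, Sgca, Sgcb, and Sspn as a percentage of each gene's mean over the 16 mice (y axis, from 0) in every library (x axis, by group and replicate number). Dag1, Sgca, and Sgcb lie together and lowest in AM replicate 1 and KD replicate 1, whereas Sspn is highest in AM replicates 3 and 4.

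Among 13210 genes with a mean of at least 1 CPM, the 3 most like each member over the 16 libraries were named by r. For Sgca they were Jsrp1, a protein of the sarcoplasmic reticulum (0.94), Dtna, which encodes alpha-dystrobrevin of the same complex (0.94), and Ndrg2 (0.92). For Sgcb they were Afap1l1 (0.96), Ndrg2 (0.95), and Impad1 (0.95), and for Dag1 the chaperone genes Ahsa1 and Fkbp4 (both 0.92) and Jsrp1 (0.91). For Dmd they were Ece1 (0.87), Ddb1 (0.86), and Pde4dip (0.86), and for Utrn Secisbp2l (0.86), Kif5c (0.82), and Akap9 (0.79). For Sspn they were Sucla2, a subunit of a citric acid cycle enzyme (0.92), Jph1, which ties the sarcoplasmic reticulum to the T-tubule (0.90), and Vdac1, a pore of the outer mitochondrial membrane (0.90). Sgcd was most like Nhsl1 (0.87), Rpgrip1l (0.86), and Akap12 (0.86), and Sntb1 most like Ptger3 (0.92), Tenm4 (0.91), and Slc22a3 (0.90). No member stood among the 3 genes most like another, and of the other subunits Dtna did.

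Other subunits of the complex also stayed within the limits by edgeR. Of 7 genes (Sgce, Sgcz, Sntb2, Sntg1, Sntg2, Dtna, and Dtnb), 4 were tested for CAC against NOR, 5 for AM against CAC, and 4 for KD against CAC, and 0 passed either the FDR alone or both limits with edgeR. At an unadjusted p under 0.05 stood 0, 1, and 0 of them, in the same order, against 29.1%, 21.7%, and 11.1% of all genes. DESeq2 and limma-voom each called 1 of the 5 in AM vs. CAC, against 7.63% and 3.77% of all genes, namely Sntg2, a gamma-syntrophin with only 0 to 9 reads in CAC and 12 to 32 reads in AM mice. Dtna differed by -0.15 in CAC vs. NOR (SE 0.172, edgeR FDR 0.635) and by -0.09 in AM vs. CAC (SE 0.181, edgeR FDR 0.833). It was lowest in KD replicate 1 (54.9 CPM) and next in AM replicate 1 (56.4 CPM).

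Of the partners at the membrane and in the matrix, 3 of 11 tested changed in CAC vs. NOR by edgeR, 1 up and 2 down, against 4.32% up and 5.13% down among all genes. Hspg2, which encodes perlecan, a basement membrane proteoglycan that binds dystroglycan, fell. It was 918.3, 625.9, 666.3, and 635.1 CPM in NOR and 451.6, 403.8, 318.0, and 530.1 CPM in CAC mice, with a log2 fold change of -0.75 (SE 0.20, edgeR FDR 0.0408). The mice of these groups did not overlap, as in 23.3% of all genes tested. Leaving out any single mouse except CAC replicate 4 raised the edgeR FDR above 0.05, to between 0.0576 and 0.0856. The call was also lost with replicate number as a term and in the fit of all 16 libraries. Ank2 and Ank3, the ankyrins that hold dystrophin and dystroglycan at the costamere, changed in opposite directions. Ank2 fell from 44.3 to 50.01 CPM in NOR to 18.7 to 28.5 CPM in CAC mice (-0.92, SE 0.128, edgeR FDR 0.00473). Ank3 rose from 87.7 to 111.4 CPM to 143.6 to 181.2 CPM (0.73, SE 0.119, edgeR FDR 0.00848). The calls of both ankyrins held without any single mouse, but that of Ank3 was lost in the fit of all 16 libraries (edgeR FDR 0.0559), and both were lost in each strain label alone. Limma-voom called the same 3 partners (9.91% of all genes), and DESeq2 (13.1% of all genes) called these and Krt19, a keratin that was 0.979 to 3.88 CPM in NOR and 0.573 to 1.34 CPM in CAC mice (-1.33 by edgeR, SE 0.476, edgeR FDR 0.101), at only 25 to 150 reads in these libraries.

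In AM vs. CAC the same ankyrins were the only 2 of 11 tested partners past both limits by edgeR and limma-voom, 1 up and 1 down by edgeR, against 1.63% up and 2.03% down among all genes. Ank2 was 29.7, 50.4, 55.8, and 47.5 CPM in AM mice, all above the CAC mice (0.88, SE 0.196, edgeR FDR 0.0425), and AM replicate 1 stood nearest to them. The Ank2 call was lost when any single mouse but AM replicate 1 was left out, with edgeR FDRs of 0.0723 to 0.107. It was also lost with the replicate block. Ank3 was 78.1, 102.4, 101.6, and 96.9 CPM, all under the CAC mice (-0.78, SE 0.107, edgeR FDR 0.00956), and its call held without any single mouse but not in the fit of all 16 libraries (edgeR FDR 0.0803), with the replicate block (0.132), or in each strain label alone. DESeq2 called these 2 and Krt19, which was 1.44 to 4.06 CPM in AM mice, all above the CAC mice (1.55 by edgeR, SE 0.405, edgeR FDR 0.0651). Of all genes tested in AM vs. CAC, 15.3% had mice that did not overlap. In KD vs. CAC 0 of 12 passed by edgeR, 2 stood at an unadjusted p under 0.05 (11.1% of all genes), DESeq2 called 1, Ank2 (2.33% of all genes), and limma-voom 0. There Ank3 was 156.7 and 158.3 CPM in KD replicates 2 and 3, within the CAC range, and 64.0 and 96.3 CPM in replicates 1 and 4, under it. KD replicates 2 and 3 also had 111.1 and 90.7 CPM of the collagen gene Col1a1, against 625.8 and 694.6 CPM in KD replicates 1 and 4 and 38.4 to 67.3 CPM in CAC mice. Other markers of KD replicates 2 and 3 were unlike those of CAC mice. Their summed fast fiber markers (157070 and 147660 CPM) lay above the CAC range of 53321 to 123670 CPM. Their macrophage markers (41.4 and 23.4 CPM) lay under the CAC range of 109.4 to 170.7 CPM. A link of these markers to Ank3 was not tested.

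Nos1, the neuronal nitric oxide synthase bound through syntrophin, was 62.0 to 99.8 CPM in NOR and 80.4 to 128.3 CPM in CAC mice (0.26, SE 0.215, edgeR FDR 0.469). In AM mice it was 46.8 to 83.1 CPM (-0.58 vs. CAC, SE 0.233, edgeR FDR 0.195) and in KD mice 33.2 to 92.4 CPM (-0.65 vs. CAC, SE 0.302, edgeR FDR 0.473). Cav3, the caveolin of muscle that binds dystroglycan, was 50.1 to 69.5 CPM in NOR and 23.5 to 55.0 CPM in CAC mice (-0.59, SE 0.230, edgeR FDR 0.127). Lama2, the laminin chain that dystroglycan binds, was 84.9 to 108.2 CPM in NOR and 38.6 to 94.9 CPM in CAC mice (-0.51, SE 0.240, edgeR FDR 0.203). All 3 overlapped between the groups and missed the limits.

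**Figure D5:**
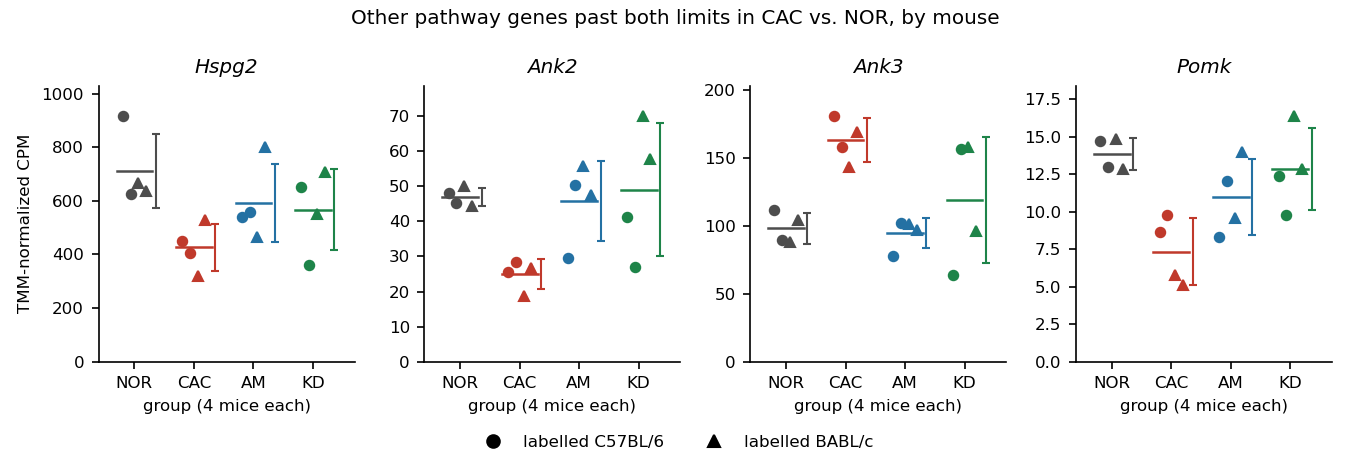
TMM-normalized CPM (y axis, from 0) of the 4 genes of the wider pathway that passed both limits in CAC vs. NOR, in each mouse of the 4 groups (x axis), with circles for C57BL/6 and triangles for BABL/c labels, a line for the mean, and a bar for 1 SD. The NOR and CAC mice of Hspg2, Ank2, Ank3, and Pomk do not overlap, as in 23.3% of all genes tested. The 4 genes were picked by tests on these same mice. The KD mice of Ank3 spread from 64.0 to 158.3 CPM.

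Of the enzymes that build the laminin-binding sugar chain of dystroglycan, 17 were tested, and 1 passed both limits in CAC vs. NOR by edgeR, downward, against 5.13% of all genes. At an unadjusted edgeR p under 0.05 stood 8 of the 17, against 29.1% of all genes. Pomk, the kinase that phosphorylates the mannose at the base of the chain, fell from 12.8 to 14.8 CPM in NOR to 5.1 to 9.8 CPM in CAC mice (-0.92, SE 0.214, edgeR FDR 0.0257), and lost its call without NOR replicates 1, 2, or 3 or CAC replicate 3 (edgeR FDR 0.0548 to 0.0729). Limma-voom also called Pomk alone (9.91% of all genes), and DESeq2 called 2 of the 17 (13.1% of all genes), Pomk and Pomgnt2, a glycosyltransferase that was 20.2 to 26.6 CPM in NOR and 7.25 to 18.1 CPM in CAC mice (-0.78 by edgeR, SE 0.266, edgeR FDR 0.0895). By the FDR alone 3 genes of the list rose and 1 fell, against 7.79% and 6.17% of all genes. The 3 were Dpm1, a subunit of the synthase that supplies mannose (0.55, SE 0.108, edgeR FDR 0.0150), Tmem5, a xylosyltransferase (0.46, SE 0.0906, edgeR FDR 0.0155), and Pomt2, which adds the first mannose (0.40, SE 0.0974, edgeR FDR 0.0312). Pomt2 was 14.9 to 15.3 CPM in NOR and 17.9 to 21.7 CPM in CAC mice, and Dpm1 31.3 to 38.9 and 47.9 to 58.6 CPM. Neither overlapped, as in 23.3% of all genes tested.

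In AM vs. CAC 0 of the 17 passed both limits by edgeR, DESeq2, or limma-voom, and 7 stood at an unadjusted edgeR p under 0.05, against 21.7% of all genes. By the FDR alone 2 fell and 0 rose, against 3.22% and 1.76% of all genes, namely Dpm1 (-0.58, SE 0.115, edgeR FDR 0.0279, with 30.3 to 41.0 CPM in AM mice) and Tmem5 (-0.42, SE 0.0828, edgeR FDR 0.0281, with 27.1 to 30.3 CPM). In KD vs. CAC 0 of 17 passed by any of the 3 tools, and 4 stood at an unadjusted edgeR p under 0.05, against 11.1% of all genes. In AM vs. NOR and KD vs. NOR 0 genes of the members and of the 3 lists passed by edgeR, DESeq2, or limma-voom. At an unadjusted edgeR p under 0.05 stood 1 other subunit and 1 enzyme in AM vs. NOR, and 1 partner in KD vs. NOR, against 9.19% and 3.54% of all genes.

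The members moved in both directions, so their median describes the list and not its genes. The median log2 fold change of the 8 members was -0.06 for CAC against NOR, -0.02 and 0.07 for AM and KD against CAC, and -0.02 and -0.01 for AM and KD against NOR. Over all genes it was, in the same order, 0.01, 0.01, 0.00018, 0.02, and 0.02. Of the members, 2 were higher and 6 lower in CAC than in NOR, and 4 higher and 4 lower in AM than in CAC. The summed level of the 8 genes was 806.6 to 1050.2 CPM in NOR and 723.5 to 950.1 CPM in CAC mice, and the lowest sums of all were those of KD replicate 1 (637.4 CPM) and AM replicate 1 (640.2 CPM).

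Markers of the other cell types that a calf muscle holds were read in the same fits, first in CAC vs. NOR. The median log2 fold change of 4 fibroblast markers was -0.76 in CAC vs. NOR, with Col1a1 alone past the limits (-3.61, edgeR FDR 0.000728), and the summed level of the list was 1602.8 to 1894.4 CPM in NOR and 711.3 to 1232.3 CPM in CAC mice. That of 6 fast fiber markers was -0.53, with 0 past the limits, of 5 lymphocyte markers -0.58, of 4 Schwann cell markers -0.30, of 4 macrophage markers 0.54, and of 4 adipocyte markers 0.51. For the neuromuscular junction, where utrophin is found, the 5 genes had a median of 0.26 and went both ways, 3 higher and 2 lower in CAC mice. Musk rose (0.93, edgeR FDR 0.0213), and the other 4 missed the limits, from -0.65 for Chrne (edgeR FDR 0.223) to 0.96 for Chrna1 (edgeR FDR 0.0998). Slow fiber markers had a median of 0.07, and smooth muscle and pericyte markers one of -0.01. The 4 endothelial markers had a median of 0.07, with 2 higher and 2 lower, among them Pecam1, which rose (0.77, edgeR FDR 0.0126), and Kdr at -0.91, which missed the limits (edgeR FDR 0.115). In AM vs. CAC the median was 0.77 for Schwann cell markers (3 of 4 at an unadjusted edgeR p under 0.05, against 21.7% of all genes), 0.69 for fibroblast markers, with Col1a1 alone past the limits (3.02, edgeR FDR 0.00223), 0.74 for lymphocyte markers, and 0.41 for fast fiber markers. For the 5 genes of the neuromuscular junction it was -0.33 for AM and -0.16 for KD against CAC, with 3 of 5 at an unadjusted edgeR p under 0.05 in each (21.7% and 11.1% of all genes) and 0 past the limits. In KD vs. CAC it was 0.84 for slow fiber markers, 0.65 for Schwann cell markers, 0.47 for fibroblast markers, and 0.44 for fast fiber markers. In KD vs. NOR it was 0.93 for slow fiber markers, -0.91 for lymphocyte markers, and 0.75 for adipocyte markers, and in AM vs. NOR 0.63 for Schwann cell markers (3 of 4 at an unadjusted edgeR p under 0.05, against 9.19% of all genes). The summed slow fiber markers were 4162 and 2979 CPM in KD replicates 2 and 3 and 805.7 and 1318 CPM in KD replicates 1 and 4, within the NOR range of 706.1 to 1898 CPM, and 0 of the 4 stood at an unadjusted edgeR p under 0.05 in either KD comparison. Apart from the lymphocytes, whose markers were a term in 1 alternative fit, the part of these cell types in the members' values was not tested.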

How the data were processed

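RNA of gastrocnemius from 16 mice (4 in each of NOR, CAC, AM, and KD) was sequenced by the authors after poly(A) enrichment on an Illumina HiSeq. The submitters' processing notes name fastp, Bowtie2, HISAT2, StringTie 1.3.1, and the builds mm9 and GRCm38, without roles, and the counting tool and the use of strand are not given in the sources used here. The deposited table pairs raw counts of each gene with FPKM, which the authors computed from these counts with 1 length per gene (checked on 4407 genes, where the implied length varied by at most 0.0929%). Each column was matched to its mouse through its label. Totals were 35913190 to 61032708 counts per library. Of 21923 genes, 21905 were found in GENCODE M21 (GRCm38).

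For each pair of groups (8 libraries), TMM scaling and the quasi-likelihood F test of edgeR 4.0.16 (R 4.3.3) were run over all genes that passed filterByExpr (min.count 10, min.total.count 15), with Benjamini-Hochberg FDR. The limits, FDR up to 0.05 and a ratio not under 1.5 or not over 0.667, follow the study, whose tool, NOISeq, was not installed. The interaction of strain label and condition was tested the same way. Single members were compared by an exact two-sided permutation test on CPM, adjusted over 40 tests. The fits were tested on simulated data. The members and the gene lists were chosen with earlier results of these data known. Values are given for all members, for every called gene of the 3 pathway lists (up to 6 per list and comparison), and for Dtna, Nos1, Cav3, and Lama2, for genes past the FDR alone in the glycosylation list, Sntg2, Krt19, and Pomgnt2, chosen after their values were seen, and for the 3 genes most like each member by Pearson's r of log2 CPM (prior count 2). Alternatives were scaling by total counts, by RLE, or by upper quartiles, the tools limma-voom (limma 3.58.1) and DESeq2 1.42.0, no filter or a filter of 1 CPM in 4 libraries, other fold limits, strain label or replicate number as a term, all 16 libraries in 1 fit, each strain label alone, and leaving out each mouse. A term for lymphocyte markers and lengths of the longest transcript were added after the data were seen. Promoters came from RefSeq (GRCm38.p6). Python 3.11.15, numpy 2.4.6, pandas 2.3.3, and matplotlib 3.10.9 were used. Sgcz, Sntg1, Sntg2, Krt8, and Large2 did not pass the count filter in CAC vs. NOR, and Xist was not analysed here. Some genes of the lists are not reported here and were left out of their counts and sums.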

Additional observations from a re-analysis of the deposited data

Results flagged for a closer look

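Of 32 sets of 4 mice (8 genes in 4 groups), 2 held a mouse far from the other 3 by the 95% limit of Dixon, which chance gives in about 1 of 20 sets. Dag1 in AM replicate 1 was 141.9 CPM, against 265.6 to 273.0 CPM in the other AM mice, with a gap of 0.944 of the range. Sntb1 in NOR replicate 4 was 24.16 CPM, against 14.6 to 15.5 CPM in the other NOR mice, with a gap of 0.906 of the range. No test bore on the reason for either value.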

How the results depend on the processing

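With 4 mice per group, the 95% intervals of Dag1, Sntb1, and Sspn were wider than those of Utrn in all 5 comparisons. The count of members past both limits was 0 in all 5 comparisons under all settings but these: it was 1 in CAC vs. NOR with total-count scaling and without NOR replicate 1 (Dmd), and 1 with DESeq2, the strain label term, the lymphocyte term, and without CAC replicate 1 (Sspn), so leaving out mice gave 0 to 1. It was 1 in AM vs. CAC with DESeq2 (Sntb1). With total-count scaling, 6 of 40 single comparisons did not overlap in place of 1. The causes were not tested. Over the whole table, total-count scaling gave 959 genes up and 619 down in CAC vs. NOR in place of 633 and 753. DESeq2 called 640 up and 479 down for AM against CAC (edgeR 239 and 298), 237 and 103 for KD against CAC (0 and 1), 50 and 20 for AM against NOR (0 and 0), and 27 and 4 for KD against NOR (0 and 0). Each strain label alone and the fit of all 16 libraries lost calls of partner genes, among them Hspg2 (FDR 0.0501) and Ank3 (0.0559) in CAC vs. NOR with all 16. The strain interaction called 0 members under each setting tried, and the count of neighbors in level that did not overlap stayed within 1.5 times.

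Replicate numbers did not pair the mice, since same-numbered mice deviated together (r over 0.1) in every pair of no comparison (r from -0.702 to 0.684). With the replicate block, members called stayed 0 in each comparison, genes called over the whole table went from 633 up and 753 down to 533 and 607 in CAC vs. NOR and from 239 and 298 to 0 and 0 in AM vs. CAC, and Hspg2 (FDR 0.0586) in CAC vs. NOR and Ank2 (0.186) and Ank3 (0.132) in AM vs. CAC lost their calls. The block turned Dag1 in KD vs. CAC to -0.0040, Sspn in AM vs. NOR to -0.043, and Sntb1 in KD vs. NOR to -0.010.

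Some log2 fold changes that had passed no limit turned in direction, and the causes were not tested. With total-count scaling they were 0.10 for Utrn, 0.11 for Dag1, and 0.019 for Sgca in CAC vs. NOR and -0.045 for Utrn and -0.084 for Dag1 in KD vs. CAC. In C57BL/6 mice alone they were 0.083 for Utrn in CAC vs. NOR, -0.23 for Sspn in AM vs. CAC, -0.079 for Utrn, -0.015 for Dag1, and -0.049 for Sspn in KD vs. CAC, -0.61 for Sspn in AM vs. NOR, and -0.022 for Utrn and -0.24 for Dag1 in KD vs. NOR. In BABL/c mice alone they were 0.22 for Dag1 in CAC vs. NOR, 0.11 for Sgca in AM vs. CAC, 0.19 for Sgca and 0.16 for Sgcb in KD vs. CAC, 0.20 for Dag1, 0.0062 for Sgcb, and 0.0031 for Sgcd in AM vs. NOR, and 0.050 for Sgca, 0.21 for Sgcb, 0.20 for Sgcd, and 0.15 for Sspn in KD vs. NOR. With the lymphocyte term they were -0.015 for Sgcb in CAC vs. NOR, -0.047 for Dag1 in KD vs. CAC, and -0.31 for Dag1 in KD vs. NOR. With limma-voom they were -0.050 for Sspn in AM vs. NOR and -0.011 for Dag1 in KD vs. NOR. With the strain label term they were -0.047 for Sspn in AM vs. NOR. Leaving out 1 mouse gave -0.075 to 0.0088 for Utrn, -0.12 to 0.13 for Dag1, -0.17 to 0.022 for Sgca, and -0.019 to 0.14 for Sgcb in CAC vs. NOR. It gave -0.25 to 0.0065 for Dag1 in AM vs. CAC. It gave -0.0068 to 0.16 for Utrn, -0.090 to 0.29 for Dag1, -0.18 to 0.13 for Sgca, and -0.25 to 0.031 for Sgcb in KD vs. CAC. It gave -0.25 to 0.041 for Sgcd and -0.18 to 0.23 for Sspn in AM vs. NOR. It gave -0.025 to 0.14 for Utrn, -0.10 to 0.28 for Dag1, -0.27 to 0.040 for Sgca, -0.19 to 0.10 for Sgcb, -0.17 to 0.12 for Sgcd, and -0.12 to 0.31 for Sntb1 in KD vs. NOR.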
